A study of Homo sapiens with 4 samples.

Results

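SR proteins and heterogeneous nuclear ribonucleoproteins (hnRNPs) are the RNA-binding proteins that decide, exon by exon, how a pre-mRNA is spliced. The genes described here were chosen by name, with earlier results of these data known: every SRSF gene with only digits after the prefix, every protein-coding HNRNP gene, TRA2A, TRA2B, SRRM1, SRRM2, SF1, U2AF1, U2AF2, SF3B1, PTBP1, PTBP3, ESRP1 and ESRP2. This gave 49 of the 60487 genes in the files. They were measured in HCC1937, a human breast cancer cell line with no functional BRCA1, in 4 groups of 1 library each. The groups were wtBRCA1 cells (genotype given as wild type) under OTX-015, wtBRCA1 cells with DMSO, and vector cells (genotype BRCA1 -/-) with OTX-015 and with DMSO. OTX-015, also called birabresib, inhibits the BET bromodomain proteins, which bind acetylated histones and support transcription by RNA polymerase II, and DMSO is its solvent. The study treated BRCA1 isogenic lines with the inhibitor to profile their transcriptomes. Dose, duration, the promoter that drives wtBRCA1 and whether each line is a single clone are not given in the sources used here. No value has a replicate.

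SR proteins carry RNA-recognition motifs and a tail rich in arginine and serine, and as a rule they bind exonic enhancers and recruit the splicing machinery. hnRNPs coat nascent RNA and often act in the other direction, binding silencers, although several also act in mRNA stability, export or translation. SF1, U2AF1, U2AF2 and the U2 snRNP subunit SF3B1 recognise the branch point and the 3′ splice site. ESRP1 and ESRP2 direct epithelial splicing programmes. Many SR and hnRNP genes are known to control their own level by splicing in a segment that sends the transcript to nonsense-mediated decay. In the GENCODE 29 annotation, 34 of the 42 members that passed a filter on low values (81.0%) have at least 1 transcript annotated as a target of nonsense-mediated decay, beside 43.4% of the 12666 coding genes that passed it. The members also have more annotated transcripts (a median of 12, beside 8 over those coding genes). Deposited values are per gene, so none of these isoforms was measured apart.

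The files give FPKM, fragments per kilobase of transcript scaled to the size of the library, and the depth behind each value is unknown. FPKM summed to 909314 to 1496107 per library, and 15004 to 15669 genes reached 1 FPKM. The 10 highest genes took 33.8% and 39.2% of the sum in the OTX-015 libraries of wtBRCA1 and vector cells, against 15.3% and 17.4% in their DMSO libraries, and the part of this in the results was not tested. BRCA1 was at 2712 and 171 FPKM in wtBRCA1 cells under OTX-015 and DMSO, against 40.8 and 37.2 FPKM in vector cells under OTX-015 and DMSO. All 7 epithelial markers looked up (EPCAM, CDH1, KRT8, KRT18, KRT19, KRT5 and CLDN4) reached 1 FPKM. The T cell marker CD3E, the fibroblast markers COL1A2, COL3A1, PDGFRB and DCN, and the endothelial markers VWF and KDR were listed at 0 in every library. The markers of other cell types that reached 1 FPKM in a library were CD14 of 5 leukocyte markers, COL1A1 of 5 fibroblast markers, and PECAM1 and CDH5 of 4 endothelial markers. The leukocyte markers summed to 5.68 and 10.2 FPKM in wtBRCA1 cells under OTX-015 and DMSO, against 0 and 0.178 FPKM in vector cells. The fibroblast markers summed to 8.39 and 9.78 FPKM in wtBRCA1 cells, against 4.01 and 1.86 FPKM in vector cells, and the endothelial markers to 2.11 and 3.86 FPKM, against 0.670 and 7.03 FPKM, in the same order. Their part in the results was not tested. In bulk RNA, fewer cells with a transcript and less of it per cell cannot be told apart.

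Of the 49 members, 42 reached 1 FPKM in at least 1 library and were tested. The other 7 were below 1 FPKM in every library. They are SRSF12, HNRNPA1L2, HNRNPCL1, HNRNPCL2, HNRNPCL3, HNRNPCL4 and U2AF1. U2AF1 encodes the subunit that reads the AG at the 3′ splice site. It was listed at 0.101 and 0.466 FPKM in wtBRCA1 cells under OTX-015 and DMSO, against 0.260 and 0.499 FPKM in vector cells. GRCh38 also holds a near-identical copy, U2AF1L5 (chr21:6484623-6499261, beside U2AF1 at chr21:43092956-43107587), which was listed at 0 in every library. Reads shared between near-identical copies can be lost or split in quantification, so the level of U2AF1 is uncertain and no comparison is drawn from it.

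HNRNPD, HNRNPDL and HNRNPR were the members that passed the OTX-015 test, all lower under OTX-015, and HNRNPAB, the third gene of the hnRNP D class, was higher under OTX-015 in both lines without passing it. Their promoter windows are shown for that reason. Each window runs from 250 bases before to 50 bases after a RefSeq start site on GRCh38.p14, and the table of windows matched 43 of the 49 members. Windows are printed 5′ to 3′ on the strand of the gene. HNRNPD is at chr4:82373942-82374241 on the minus strand, HNRNPDL at chr4:82430413-82430712 on the minus strand, HNRNPR at chr1:23344235-23344534 on the minus strand and HNRNPAB at chr5:178204283-178204582 on the plus strand. Capitals mark an E-box, spelled CACGTG, and boxes spelled CCAAT on either strand. They also mark a TATA box, spelled TATAAA, and an ETS core, for which the letters CCGGAAG were searched on either strand.
HNRNPD: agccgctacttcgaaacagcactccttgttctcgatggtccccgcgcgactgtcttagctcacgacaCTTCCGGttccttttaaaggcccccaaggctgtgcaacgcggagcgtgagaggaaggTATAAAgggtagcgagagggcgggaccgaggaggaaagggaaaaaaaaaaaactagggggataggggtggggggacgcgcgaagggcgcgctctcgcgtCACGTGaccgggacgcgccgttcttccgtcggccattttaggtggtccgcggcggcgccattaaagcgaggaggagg
HNRNPDL: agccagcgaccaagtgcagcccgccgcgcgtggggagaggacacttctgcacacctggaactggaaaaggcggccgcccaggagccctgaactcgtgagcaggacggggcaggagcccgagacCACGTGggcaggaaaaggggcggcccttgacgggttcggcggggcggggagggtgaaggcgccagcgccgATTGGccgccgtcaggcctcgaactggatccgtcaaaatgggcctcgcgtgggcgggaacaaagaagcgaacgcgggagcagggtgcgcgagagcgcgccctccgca
HNRNPR: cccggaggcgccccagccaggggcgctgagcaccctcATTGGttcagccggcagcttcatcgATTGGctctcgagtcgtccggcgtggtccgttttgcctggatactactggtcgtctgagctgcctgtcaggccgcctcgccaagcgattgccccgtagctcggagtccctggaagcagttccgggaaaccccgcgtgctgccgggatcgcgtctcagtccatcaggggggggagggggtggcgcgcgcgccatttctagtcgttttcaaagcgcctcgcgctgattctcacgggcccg
HNRNPAB: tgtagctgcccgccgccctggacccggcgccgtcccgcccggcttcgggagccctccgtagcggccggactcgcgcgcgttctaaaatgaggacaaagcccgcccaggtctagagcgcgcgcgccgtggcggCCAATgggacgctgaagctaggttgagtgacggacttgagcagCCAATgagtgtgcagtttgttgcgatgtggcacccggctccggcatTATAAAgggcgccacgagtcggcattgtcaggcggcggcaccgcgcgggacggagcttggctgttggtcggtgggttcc

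The HNRNPD window holds an E-box, a TATA box and an ETS core, and the HNRNPDL window an E-box and a CCAAT box. A second annotated HNRNPDL start has an overlapping window, which holds another E-box. The HNRNPR window holds 2 CCAAT boxes and no E-box, so the 3 genes share none of the searched motifs. The HNRNPAB window holds 2 CCAAT boxes and a TATA box. The printed HNRNPDL window also spans the annotated start of ENOPH1, a gene on the opposite strand, at chr4:82430562. Its motifs therefore cannot be assigned to either gene alone. On both strands, CACGTG was found in 10 of the 55 windows of tested members (18.2%), beside 9.33% of the 14655 windows of all genes tested and 7.26% of all 35116 windows. CCAAT was found in 25 windows of members (45.5%), beside 34.7% of tested and 34.6% of all windows. TATAAA was found in 6 (10.9%), beside 6.28% of tested and 11.5% of all windows. CCGGAAG was found in 7 (12.7%), beside 16.6% of tested and 10.3% of all windows. The YY1 core AAGATGG was in 2 windows of members (3.64%), beside 6.95% of tested and 5.84% of all windows. None of the motifs overlaps another in the 4 windows printed. The windows of tested members had a median GC content of 66.0%, beside 64.7% over the 14655 windows of genes tested. A match describes these letters and is not a binding site measured here.

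HNRNPA2B1, which binds splicing silencers and is also known for mRNA transport in neural cells, had the highest level of all members. It was at 2669 and 1859 FPKM in wtBRCA1 cells under OTX-015 and DMSO, against 2344 and 1612 FPKM in vector cells under OTX-015 and DMSO. It took 21.5 to 33.3% of the summed FPKM of the 49 genes. The next by mean level were HNRNPH1, HNRNPM, U2AF2, HNRNPU and SRSF5, with means of 513, 500.3, 399, 302 and 282 FPKM over the 4 libraries. HNRNPH1 binds runs of guanines, HNRNPM binds GU-rich RNA, and HNRNPU is a component of the nuclear scaffold. HNRNPM was at 442 and 424 FPKM in wtBRCA1 cells under OTX-015 and DMSO, against 649 and 487 FPKM in vector cells under OTX-015 and DMSO. HNRNPU was at 351 and 289.9 FPKM in wtBRCA1 cells, against 317 and 249.6 FPKM in vector cells, OTX-015 before DMSO in each. SRSF5, an SR protein with a pair of RNA-recognition motifs, was at 278 and 253 FPKM in wtBRCA1 cells, against 325 and 272 FPKM in vector cells, in the same order. The 49 genes summed to 8010 and 7322 FPKM in wtBRCA1 cells under OTX-015 and DMSO, and to 9001 and 7496 FPKM in vector cells under OTX-015 and DMSO. As a share of each library this was 0.542% and 0.761% in wtBRCA1 cells, and 0.602% and 0.824% in vector cells, again OTX-015 before DMSO. The sum was thus higher, and the share lower, in both OTX-015 libraries. Without HNRNPA2B1 the sum was 5341 and 5462 FPKM in wtBRCA1 cells, and 6656 and 5884 FPKM in vector cells, OTX-015 before DMSO. That sum was thus lower under OTX-015 in wtBRCA1 cells and higher in vector cells.

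**Figure D1:**
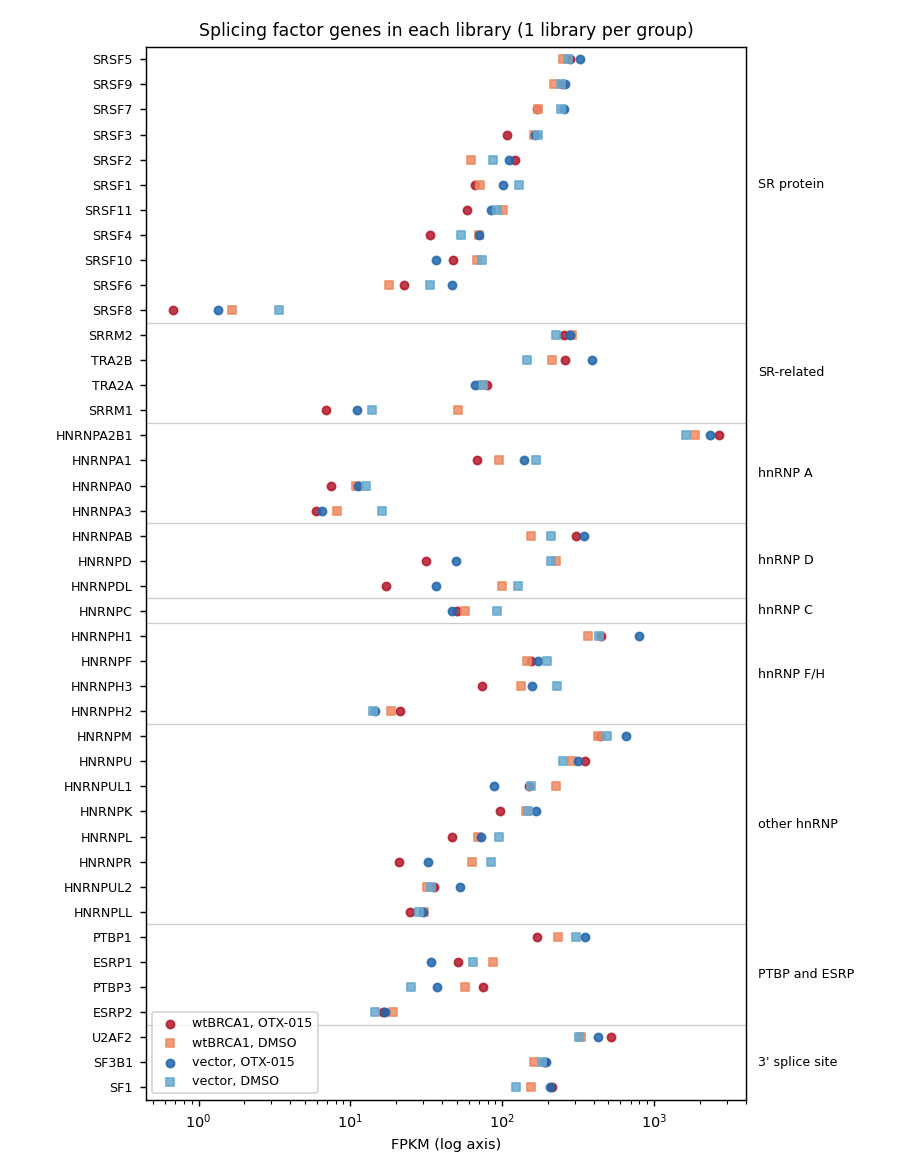
Level of the 42 tested genes in FPKM (log axis) in the 4 libraries, grouped by class and sorted by mean within a class; circles are OTX-015 and squares DMSO, red wtBRCA1 and blue vector cells, with 1 library per group. Levels ran from 0.678 FPKM (SRSF8) to 2669 FPKM (HNRNPA2B1), and HNRNPD, HNRNPDL and HNRNPR show both circles left of both squares.

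The first comparison asked how the genes differed between OTX-015 and DMSO in both lines. 3 members fell under OTX-015, 0 rose and 39 did not pass the test. Over all 18294 genes tested, 2.67% fell, 3.66% rose and 6.32% changed either way, so the 3 of 42 members that changed lay near the background for either direction. The test was limma on log2(FPKM + 1) with line and treatment as terms, Benjamini-Hochberg adjustment over all genes tested and a threshold of 0.05. With 1 library per group it measures whether a change was alike in both lines, not the spread between cultures. The median effect was −0.08 over the members and 0.03 over all genes, on the log2(FPKM + 1) scale, which understates changes of low genes. Effects were positive for 19 members and negative for 23, beside 9421 positive and 8873 negative over all genes. At an unadjusted p under 0.05 were 14 members, as were 4169 of all genes.

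HNRNPD encodes AUF1, which binds AU-rich elements in mRNAs and is best known for steering their decay. It was at 31.5 and 225 FPKM in wtBRCA1 cells under OTX-015 and DMSO, against 49.9 and 209 FPKM in vector cells under OTX-015 and DMSO. Both OTX-015 libraries lay below both DMSO libraries, with no overlap. This ordering was not counted over all genes, and passing the test favours it, so it adds no support to the calls here or below. HNRNPD fell by 2.42 ± 0.30 log2 units (SE; limma, adjusted p = 0.0037). The DMSO level was 7.15 times the OTX-015 level in wtBRCA1 cells and 4.18 times in vector cells. The gene lies at chr4:82352498-82374503 on the minus strand.

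HNRNPDL, a close relative of HNRNPD that also binds AU-rich RNA, is its next coding neighbour on chromosome 4. It lies at chr4:82422564-82430408 on the same strand, 48.1 kb away, with 0 coding genes between them. HNRNPDL was at 17.3 and 99.7 FPKM in wtBRCA1 cells under OTX-015 and DMSO, against 36.4 and 128 FPKM in vector cells under OTX-015 and DMSO. The groups again did not overlap. It fell by 2.12 ± 0.32 log2 units (SE; limma, adjusted p = 0.0079), and its DMSO level was 5.78 and 3.51 times the OTX-015 level in wtBRCA1 and vector cells. ENOPH1, an enzyme of methionine salvage, is read on the opposite strand from a start 154 bases beyond the annotated start of HNRNPDL. ENOPH1 was at 51.0 and 38.3 FPKM in wtBRCA1 cells under OTX-015 and DMSO, against 36.9 and 50.5 FPKM in vector cells, and its effect of −0.02 ± 0.34 did not pass limma's test (adjusted p = 0.977). ENOPH1 was thus higher under OTX-015 in wtBRCA1 cells and lower in vector cells.

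HNRNPR, a relative of SYNCRIP that binds RNA in the nucleus and in the axons of motor neurons, was at 21.0 and 63.6 FPKM in wtBRCA1 cells under OTX-015 and DMSO. In vector cells it was at 32.2 and 84.4 FPKM, OTX-015 before DMSO. The OTX-015 libraries lay below the DMSO libraries here too. HNRNPR fell by 1.46 ± 0.31 log2 units (SE; limma, adjusted p = 0.026), and the DMSO level was 3.03 and 2.62 times the OTX-015 level in wtBRCA1 and vector cells. It lies at chr1:23303771-23344336 on the minus strand. Of its coding neighbours, ZNF436, 15.1 kb away, had an OTX-015 effect of 0.09. TCEA3, 36.7 kb away, was at 0.849 and 4.59 FPKM in wtBRCA1 cells under OTX-015 and DMSO. In vector cells TCEA3 was at 0.149 and 3.31 FPKM. Its effect of −1.75 ± 0.48 did not pass (limma, adjusted p = 0.060), and a link to HNRNPR was not tested. No other gene at 10 FPKM or more in a library overlaps HNRNPD, HNRNPDL or HNRNPR in the annotation. These were also the 3 members at least 1 log2 unit lower under OTX-015 in both lines, as were 4.43% of all genes. 0 members were 1 log2 unit higher in both lines, as were 4.57% of all genes. The calls for all 3 were lost without the mean-variance trend or without line as a term, those of HNRNPDL and HNRNPR also under quantile normalization, and no gene of any kind was called in fits of 3 libraries, which also had no term for the line.

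HNRNPAB, the third gene of the hnRNP D class, encodes a protein that binds single-stranded nucleic acids and is a relative of both. It was at 306 and 154 FPKM in wtBRCA1 cells under OTX-015 and DMSO, against 347 and 209 FPKM in vector cells under OTX-015 and DMSO. Both OTX-015 libraries were the higher ones, but the effect of 0.86 ± 0.24 did not pass limma's threshold (adjusted p = 0.066). With protein-coding genes only in the fit, HNRNPAB and HNRNPA2B1 passed as genes that rose. PHYKPL, which overlaps HNRNPAB on the opposite strand, was at 56.5 to 107 FPKM. Whether reads were assigned by strand is not known, so the share of reads from such overlapping genes cannot be told apart. The HNRNPAB to HNRNPD ratio, chosen after the values were seen, was 9.73 and 0.683 in wtBRCA1 cells under OTX-015 and DMSO, against 6.96 and 1.004 in vector cells. The HNRNPD to HNRNPDL ratio was 1.82 and 2.26 in wtBRCA1 cells and 1.37 and 1.63 in vector cells, again OTX-015 before DMSO. The 3 genes together summed to 355 and 478 FPKM in wtBRCA1 cells and 433 and 546 FPKM in vector cells, in that order. The summed level differed less than that of HNRNPD or HNRNPDL alone. A sum of genes that differ in opposite directions tends to do so, and nothing is concluded from it. HNRNPAB was the highest of the 3 in both OTX-015 libraries.

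**Figure D2:**
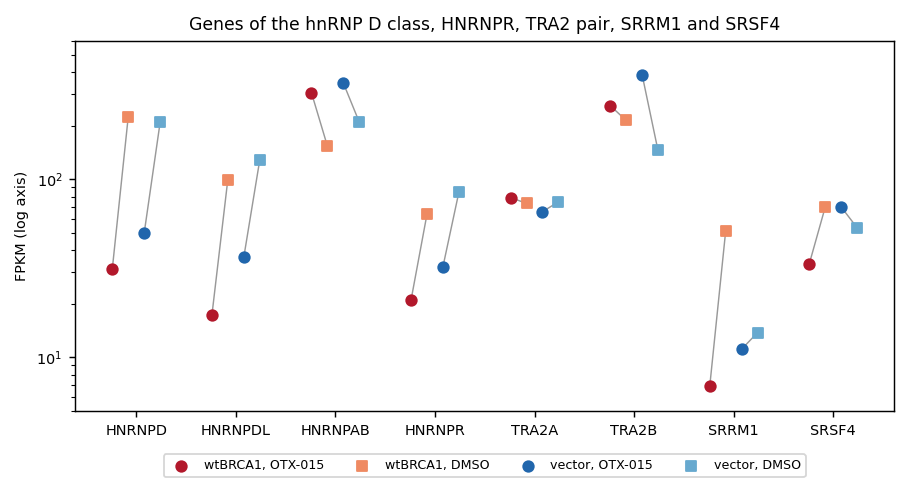
FPKM (log axis) of the hnRNP D class, HNRNPR, the TRA2 pair, SRRM1 and SRSF4 in each of the 4 libraries; circles are OTX-015 and squares DMSO, red wtBRCA1 and blue vector cells, and grey lines join the libraries of 1 line. HNRNPD, HNRNPDL and HNRNPR slope the same way in both lines, while the SRSF4 lines slope in opposite ways.

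No SR protein gene passed the OTX-015 test. Of the 11 tested, 5 effects were positive and 6 negative, between −0.78 (SRSF8) and 0.65 (SRSF2), with a median of −0.22. SRSF2, also called SC35, was at 122 and 62.6 FPKM in wtBRCA1 cells under OTX-015 and DMSO, against 111 and 87.2 FPKM in vector cells (limma, adjusted p = 0.225). MFSD11 overlaps it on the opposite strand at 269 to 482 FPKM. SRSF10, which represses splicing when dephosphorylated, was at 47.5 and 68.6 FPKM in wtBRCA1 cells under OTX-015 and DMSO, against 36.4 and 73.4 FPKM in vector cells, with an effect of −0.76 (limma, adjusted p = 0.178). SRSF1, the founding SR protein and a known oncoprotein, was at 66.3 and 71.1 FPKM in wtBRCA1 cells, against 102 and 129 FPKM in vector cells, OTX-015 before DMSO. An uncharacterised gene, RP11-159D12.6, overlaps it on the opposite strand at 206 to 293 FPKM. SRSF7 and SRSF9 varied little with treatment, with effects between 0.03 and 0.13. The SR genes from SRSF1 to SRSF11 summed with SRSF12 to 1157 and 1197 FPKM in wtBRCA1 cells under OTX-015 and DMSO, against 1451 and 1404 FPKM in vector cells. The sum thus differed little with treatment and more with the line.

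Among the SR-related genes, TRA2B and SRRM1 differed most and neither passed the test. TRA2B, which binds GAA-rich exonic enhancers, was at 259 and 214 FPKM in wtBRCA1 cells under OTX-015 and DMSO, against 388 and 145 FPKM in vector cells (effect 0.84 ± 0.30; limma, adjusted p = 0.130). Its paralogue TRA2A was at 78.9 and 73.2 FPKM in wtBRCA1 cells, against 65.8 and 74.7 FPKM in vector cells. The TRA2B to TRA2A ratio, chosen after the values were seen, was 3.29 and 2.92 in wtBRCA1 cells under OTX-015 and DMSO, against 5.89 and 1.94 in vector cells. SRRM1, a coactivator of nuclear speckles, was at 6.92 and 51.4 FPKM in wtBRCA1 cells under OTX-015 and DMSO, against 11.1 and 13.8 FPKM in vector cells. The wtBRCA1 DMSO library stood apart from the other 3 in SRRM1, and the effect of −1.51 ± 0.52 did not pass (limma, adjusted p = 0.120). SRRM2, a large scaffold of nuclear speckles, was at 226 to 289 FPKM.

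Of the hnRNP A genes, HNRNPA2B1 had an effect of 0.53 ± 0.15 (limma, adjusted p = 0.071), with both OTX-015 libraries above both DMSO libraries. Quantile normalization, which gives every library the same distribution, moved this effect to 0.01. HNRNPA1, which binds exonic and intronic silencers, was at 68.1 and 94.9 FPKM in wtBRCA1 cells under OTX-015 and DMSO, against 139.8 and 166 FPKM in vector cells. HNRNPA3, a paralogue, was at 5.97 and 8.20 FPKM in wtBRCA1 cells under OTX-015 and DMSO, against 6.55 and 16.1 FPKM in vector cells. Pseudogene copies took 78.5 to 88.1% of the combined FPKM of HNRNPA3 and its copies, and 57.6 to 63.5% of that of HNRNPC, so both levels are uncertain. Among them HNRNPA3P6 was at 24.2 to 56.5 FPKM and HNRNPCP2 at 68.4 to 107 FPKM, above their parent genes. Copies took 24.3 to 31.5% for HNRNPA1, 26.7 to 37.7% for HNRNPK and 29.3 to 34.4% for HNRNPL. The levels of these genes are thus uncertain too, to a lesser degree. HNRNPC itself, which binds uridine tracts and competes with U2AF2, was at 50.6 and 56.6 FPKM in wtBRCA1 cells under OTX-015 and DMSO, against 46.9 and 92.7 FPKM in vector cells. In all, the files list 130 pseudogene entries of 19 members, of which 22 reached 1 FPKM. Adding the copies to their parents left the same 3 genes called.

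The F and H genes, whose products bind runs of guanines, did not pass the test. HNRNPH1 was at 449 and 369 FPKM in wtBRCA1 cells under OTX-015 and DMSO, against 799 and 435 FPKM in vector cells (effect 0.58; limma, adjusted p = 0.167). HNRNPH3 was at 74.0 and 133 FPKM in wtBRCA1 cells, against 157 and 228 FPKM in vector cells, in the same order, with an effect of −0.69 (limma, adjusted p = 0.160). RUFY2 overlaps HNRNPH3 on the opposite strand. RUFY2 was at 37.0 and 72.8 FPKM in wtBRCA1 cells under OTX-015 and DMSO, against 39.2 and 71.6 FPKM in vector cells. The HNRNPH3 level is thus uncertain. HNRNPF was at 145 to 196 FPKM and HNRNPH2 at 14.1 to 21.3 FPKM, with effects between −0.05 and 0.12. Of the 8 remaining hnRNP genes, HNRNPR fell and the other 7 did not pass. HNRNPUL1, a relative of HNRNPU, was at 150.3 and 226 FPKM in wtBRCA1 cells under OTX-015 and DMSO, against 87.8 and 154 FPKM in vector cells, with an effect of −0.69. TGFB1 overlaps HNRNPUL1 on the opposite strand at 17.6 to 65.6 FPKM. The poly-C binder HNRNPK, the CA-repeat binders HNRNPL and HNRNPLL, and HNRNPM, HNRNPU and HNRNPUL2 had effects between −0.48 and 0.38. Each of the 3 tested genes of the 3′ splice site had a positive effect, and none passed. Over all genes, 9421 of 18294 OTX-015 effects were positive. The SF3B1 effect changed sign in 1 of 12 alternatives, to −0.04, and the lowest U2AF2 effect among them was 0.25. U2AF2, which binds the polypyrimidine tract, was at 516 and 331 FPKM in wtBRCA1 cells under OTX-015 and DMSO, against 429 and 318 FPKM in vector cells (effect 0.54; limma, adjusted p = 0.181). SF1, the branch point binder, was at 213 and 155 FPKM in wtBRCA1 cells, against 207 and 123 FPKM in vector cells, and SF3B1 at 161 to 195 FPKM.

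ESRP1 and its paralogue ESRP2 were expressed in all libraries, as were the polypyrimidine tract binders PTBP1 and PTBP3. ESRP1 was at 51.1 and 87.1 FPKM in wtBRCA1 cells under OTX-015 and DMSO, against 33.9 and 63.9 FPKM in vector cells, so that the OTX-015 library was the lower in each line (effect −0.83; limma, adjusted p = 0.135). ESRP2 was at 14.5 to 19.1 FPKM, and RP11-96D1.11, a gene on the same strand that overlaps it, at 81.6 to 350.4 FPKM, so the level of ESRP2 is uncertain.

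**Figure D3:**
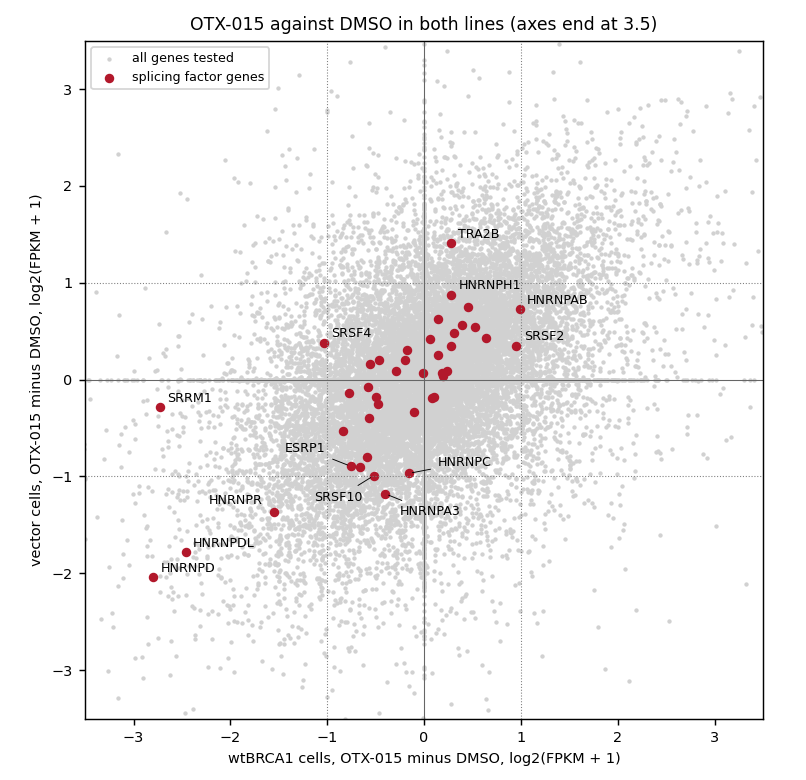
OTX-015 minus DMSO difference in log2(FPKM + 1) in wtBRCA1 cells (horizontal) and vector cells (vertical) for the 42 members (red) and all genes tested (grey), each difference from 1 library per group; dotted lines mark 1 log2 unit and both axes end at 3.5. HNRNPD, HNRNPDL and HNRNPR lie beyond 1 log2 unit on the lower side in both lines.

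Within wtBRCA1 cells, 0 members were at least 1 log2 unit higher under OTX-015 than under DMSO and 5 were lower, beside 12.9% and 13.4% of all genes. The 5 were HNRNPD (−2.80), SRRM1 (−2.73), HNRNPDL (−2.46), HNRNPR (−1.55) and SRSF4 (−1.04). Within vector cells 1 member was higher, TRA2B (1.41), and 4 were lower, beside 13% and 12.7% of all genes. These 4 were HNRNPD (−2.04), HNRNPDL (−1.78), HNRNPR (−1.36) and HNRNPA3 (−1.18). The OTX-015 differences had the same sign in both lines for 33 of the 42 members and opposite signs for 9. This was not counted over all genes, so it cannot be read as particular to the members.

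The second comparison asked whether the OTX-015 difference itself differed between the lines, which 1 library per group does not allow to be tested. In wtBRCA1 cells BRCA1 itself was at 2712 FPKM under OTX-015 and 171 FPKM under DMSO. Treatment and BRCA1 level therefore cannot be told apart within that line. The difference in wtBRCA1 cells minus that in vector cells was at least 1 log2 unit higher for 0 members and lower for 3, beside 13.2% and 14% of all genes. It was lowest for SRRM1 (−2.44), SRSF4 (−1.42) and TRA2B (−1.13) and highest for HNRNPC (0.81), HNRNPA3 (0.78) and SRSF2 (0.61). SRSF4, an SR protein of nuclear speckles, was at 33.6 and 70.0 FPKM in wtBRCA1 cells under OTX-015 and DMSO, against 69.8 and 53.4 FPKM in vector cells under OTX-015 and DMSO. The OTX-015 library was thus the lower in wtBRCA1 cells and the higher in vector cells. The members' median was −0.17, and that of all genes −0.01.

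The third comparison set wtBRCA1 cells against vector cells under both treatments. It shares all 4 libraries with the OTX-015 comparison, and any other difference between the 2 lines cannot be told apart from BRCA1. The wtBRCA1 libraries also had unlike BRCA1 levels, 2712 FPKM under OTX-015 and 171 FPKM under DMSO. 0 members passed limma's threshold in either direction after Benjamini-Hochberg adjustment, beside 4.88% of all genes that rose and 3.41% that fell (8.28% either way). At an unadjusted p under 0.05 there were 8 members and 4293 of all genes. The members' effects were negative for 29 and positive for 13, with a median of −0.28, beside 0.05 over all genes. Restricted to protein-coding genes, the same fit called 1 member, HNRNPH3.

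The line effect, taken over both treatments, was negative for 10 of 11 SR protein genes, with a median of −0.32, though none passed. Within each treatment alone, the difference was negative for 9 of the 11 and positive for 2. Over all genes, 8621 of 18294 line effects were negative. SRSF6, which binds exonic enhancers, was at 22.4 and 46.8 FPKM in wtBRCA1 and vector cells under OTX-015, and at 17.9 and 33.3 FPKM under DMSO, so that both wtBRCA1 libraries lay below both vector libraries (effect −0.94 ± 0.32; limma, adjusted p = 0.107). SRSF1 had an effect of −0.73 and SRSF7, which has a zinc knuckle, was at 171 and 254 FPKM in wtBRCA1 and vector cells under OTX-015 and at 172 and 242 FPKM under DMSO. SRSF10 had the only positive effect, 0.14, with differences of 0.38 under OTX-015 and −0.10 under DMSO.

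HNRNPH3 had an effect of −0.92 ± 0.27 and HNRNPA1 of −0.91 ± 0.27 (limma, adjusted p = 0.064 and 0.071), and for both genes the wtBRCA1 library was the lower under each treatment. PTBP3 had the largest positive effect, 1.06 ± 0.31 (limma, adjusted p = 0.064). It was at 74.6 and 37.3 FPKM in wtBRCA1 and vector cells under OTX-015, and at 56.5 and 24.9 FPKM under DMSO, with no overlap between the lines. PTBP1, its paralogue and the main repressor that binds polypyrimidine tracts, was at 169 and 351 FPKM in wtBRCA1 and vector cells under OTX-015, and at 234 and 304 FPKM under DMSO (effect −0.72; limma, adjusted p = 0.128). The PTBP1 to PTBP3 ratio, chosen after the values were seen, was 2.26 and 9.41 in wtBRCA1 and vector cells under OTX-015 and 4.14 and 12.2 under DMSO. PTBP3 was thus higher and PTBP1 lower in wtBRCA1 cells under each treatment, by amounts that did not pass the test.

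**Figure D4:**
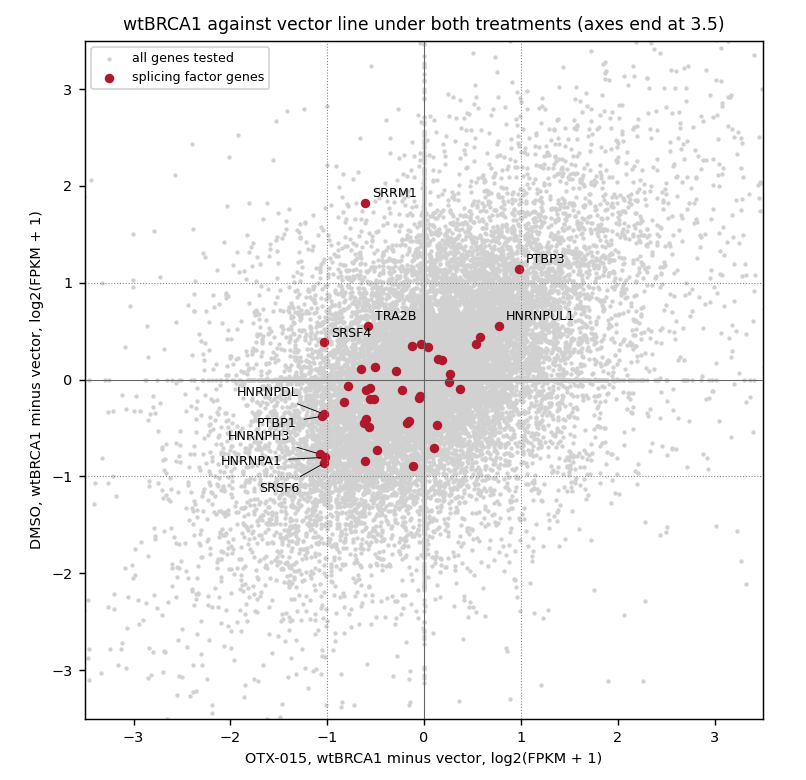
wtBRCA1 minus vector difference in log2(FPKM + 1) under OTX-015 (horizontal) and DMSO (vertical) for the 42 members (red) and all genes tested (grey), each from 1 library per group; dotted lines mark 1 log2 unit and both axes end at 3.5. PTBP3 lies at 0.98 and 1.15, and SRRM1 lies on opposite sides of 0 under OTX-015 and DMSO.

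Under OTX-015, 0 members were at least 1 log2 unit higher in wtBRCA1 than in vector cells and 6 were lower, beside 15% and 12.6% of all genes. The 6 were HNRNPH3, PTBP1, HNRNPDL, SRSF4, SRSF6 and HNRNPA1, between −1.08 and −1.03. With a pseudocount of 5 this count was 2. Under DMSO, 2 members were higher, SRRM1 (1.83) and PTBP3 (1.15), and 0 were lower, beside 14.8% and 11.7% of all genes. No member passed 1 log2 unit with the same sign under both treatments, beside 6.1% of all genes on the higher side and 4.43% on the lower side. The differences were negative under both treatments for 22 members, positive for 8 and of opposite sign for 12. These signs were not counted over all genes either.

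The other splicing genes looked up were 98 genes in 7 lists, all of which were tested. 1 rose and 4 fell under OTX-015, and 2 rose and 0 fell with wtBRCA1. Over all genes, 3.66% rose and 2.67% fell under OTX-015, and 4.88% rose and 3.41% fell with wtBRCA1, so neither count stood above the background in total. Their median OTX-015 effect was −0.02. In the Sm ring, which wraps the spliceosomal RNAs, SNRPF fell and the other 6 did not pass, with a list median of −0.50. SNRPF was at 23.3 and 49.6 FPKM in wtBRCA1 cells under OTX-015 and DMSO, against 23.0 and 84.8 FPKM in vector cells (effect −1.45 ± 0.34; limma, adjusted p = 0.036). Of 14 proteins of the U1 and U2 snRNPs, 2 fell and 0 rose, with a median of −0.38. SF3A3, a U2 subunit, was at 58.1 and 197 FPKM in wtBRCA1 cells under OTX-015 and DMSO, against 44.1 and 144 FPKM in vector cells (effect −1.72 ± 0.28; limma, adjusted p = 0.011). SNRPC, the U1 C protein, which helps U1 bind the 5′ splice site, was at 44.4 and 103 FPKM in wtBRCA1 cells, against 37.9 and 109 FPKM in vector cells (effect −1.35 ± 0.30; limma, adjusted p = 0.029). In these 3 genes both OTX-015 libraries lay below both DMSO libraries, an ordering that passing the test favours.

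Of 13 genes of the exon junction complex and nonsense-mediated decay, 1 rose and 1 fell. EIF4A3, the helicase that anchors the junction complex, was at 409 and 165 FPKM in wtBRCA1 cells under OTX-015 and DMSO, against 277 and 107 FPKM in vector cells (effect 1.33 ± 0.24; limma, adjusted p = 0.017). MAGOH, a core subunit of the same complex, was at 86.8 and 172 FPKM in wtBRCA1 cells, against 47.7 and 116 FPKM in vector cells (effect −1.12 ± 0.28; limma, adjusted p = 0.046). EIF4A3 and MAGOH thus changed in opposite directions, with MAGOH close to the threshold. How the calls in these lists hold under other processing is not given here. None of the tri-snRNP genes (12), the Prp19 complex and late helicases (13), the SR protein kinases and their importer (9) or the other splicing regulators (30) passed for OTX-015. Their effects ran from −0.53 (SNRNP40) to 0.80 (USP39), from −0.45 (DHX15) to 1.29 (SLU7), from −0.46 (SRPK2) to 0.77 (SRPK1) and from −1.18 (MBNL2) to 0.95 (RBM5). The kinases SRPK1 and SRPK2, which phosphorylate the tails of SR proteins, were the highest and lowest of their list.

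**Figure D5:**
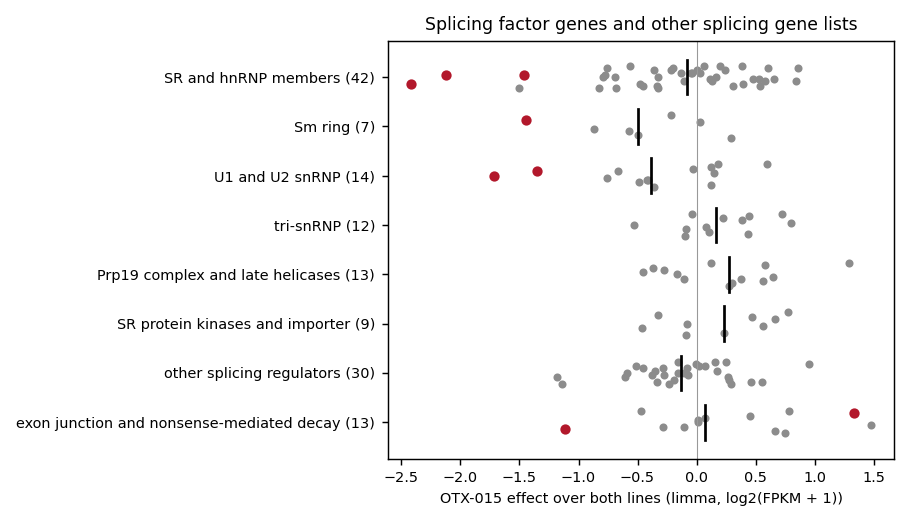
OTX-015 effect over both lines (limma, log2(FPKM + 1)) for the 42 SR and hnRNP genes and 7 other lists of splicing genes, 1 point per gene, with the number of genes in brackets; red points passed the threshold and black bars are medians. HNRNPD and HNRNPDL lie furthest left, at −2.42 and −2.12.

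With wtBRCA1, BCAS2 and PLRG1, subunits of the Prp19 complex that activates the spliceosome, rose and no other gene of the 7 lists passed. BCAS2 was at 116 and 51.1 FPKM in wtBRCA1 and vector cells under OTX-015, and at 106 and 38.0 FPKM under DMSO (effect 1.31 ± 0.29; limma, adjusted p = 0.024). PLRG1 was at 281 and 90.4 FPKM in wtBRCA1 and vector cells under OTX-015, and at 144 and 71.7 FPKM under DMSO (effect 1.31 ± 0.28; limma, adjusted p = 0.021). Both wtBRCA1 libraries lay above both vector libraries for both genes, an ordering that passing the test favours.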

How the data were processed

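Poly(A)-selected RNA of HCC1937 vector and wtBRCA1 cells under OTX-015 or DMSO was sequenced from 1 library per group, and the kit was directional per the labels' protocols. The authors deposited FPKM per gene, and the submitters' processing notes name TopHat2, Cufflinks and hg38. Tool versions, the annotation and the strand setting are not known, and neither is depth.

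Values were joined by identifier, of which 56993 (94.2%) were in GENCODE 29, which gave gene types and coordinates. The 7516 short RNA genes were left out, and 68 shared symbols were summed. Genes at 1 FPKM or more in at least 1 library (18294) were analysed as log2(FPKM + 1). limma 3.58.1 (R 4.3.3) was fitted with terms for line and treatment and a mean-variance trend. Its p-values were adjusted by Benjamini-Hochberg over the genes kept, at a threshold of 0.05. The 1 residual degree of freedom left for each gene was pooled across genes. The verbs rose, fell and changed are kept for genes past that threshold. Differences between pairs of libraries were not tested and are described past 1 log2 unit. The fit was tested on simulated data, where more than the nominal share of its calls were false, so calls close to the threshold are weak. Promoter windows came from RefSeq (GRCh38.p14).

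Members and lists were chosen with earlier results of these data known. Members are given in full where they passed the threshold, passed 1 log2 unit alike in both pairs, were among the 6 highest by mean or among the 3 highest and 3 lowest for the difference of responses. Others named with values serve to describe their class and were picked by role after the values were seen. Of the other lists, genes past the threshold are named, or else the highest and lowest. Alternatives covered the pseudocount, the filter, rescaling, the trend, robust estimation, the other factor, shared symbols, gene type and each library left out. Adding pseudogene copies to their parents was chosen after seeing the data. Other steps used pandas 2.3.3 and numpy 2.4.6 in Python 3.11.15, with plots by matplotlib 3.10.9.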

Additional observations from a re-analysis of the deposited data

Results flagged for a closer look

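SRSF4 differed between the lines in its OTX-015 response. Its difference from DMSO was −1.04 log2 units in wtBRCA1 cells and 0.38 in vector cells, so that the response in wtBRCA1 cells minus that in vector cells was −1.42. The levels were 33.6 and 70.0 FPKM in wtBRCA1 cells under OTX-015 and DMSO, against 69.8 and 53.4 FPKM in vector cells. It was picked out because the 2 lines moved in opposite ways by at least 1 log2 unit in all. Over all genes, the difference of responses was at least 1 log2 unit lower for 14% and higher for 13.2%. With 1 library per group the difference was not tested. The BRCA1 level of wtBRCA1 cells also differed between OTX-015 and DMSO, and the 2 cannot be told apart.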

How the results depend on the processing

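No paired analysis was possible because each group has 1 library and no replicate numbers to block on. The line term of the fit already sets OTX-015 against DMSO within each line. Of the 42 members, 3 were called for OTX-015, and this count was 7 of all 49 with no filter on low values, SRSF12 among them, 5 with protein-coding genes only, 1 (HNRNPD) under quantile normalization, 0 without the trend, 0 with the other factor left out and 0 to 0 with each library left out. The fits with a library left out had the effect's factor alone as a term, so 2 choices changed at once, and called no gene of the whole table. HNRNPD was called under 10 of 12 alternatives, and HNRNPDL and HNRNPR under 9 each. Their adjusted p under quantile normalization was 0.050 and 0.071. Over all genes, 669 rose and 488 fell under OTX-015. These counts were 37 and 30 under quantile normalization, 3 and 1 without the trend, and 1 and 0 with the other factor left out. For wtBRCA1, 892 rose and 623 fell, against 386 and 327, 107 and 66, and 35 and 22 in the same order. The called genes of the 7 other lists were not followed through these alternatives here. HNRNPA2B1 and HNRNPAB were the 2 added, as genes that rose, with protein-coding genes only. The median OTX-015 effect of the members was −0.21 under quantile normalization and −0.25 to 0.064 with each library left out, beside −0.08. The count of 0 for wtBRCA1 was 5 of all 49 with no filter, SRSF12 among them, 1 with protein-coding genes only and 0 with each library left out. The median wtBRCA1 effect was −0.16 with no filter and −0.30 to −0.11 with each library left out, beside −0.28. The 6 members past 1 log2 unit between the lines under OTX-015 were 2 with a pseudocount of 5. The causes of these shifts were not tested. Depth is unknown, so no counting error can be given.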
